A study of Mus musculus with 8 samples.

Results

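Voltage-gated calcium channel subunits of the mouse atrium were described as 10 genes chosen by name, and all 10 were found among the 54532 genes of the count table. They encode the pore-forming alpha-1 subunits of L-type channels (Cacna1c, Cacna1d, Cacna1s) and T-type channels (Cacna1g, Cacna1h), the beta subunits (Cacnb1, Cacnb2, Cacnb3) and the alpha-2-delta subunits (Cacna2d1, Cacna2d2). All 10 passed the filter on low counts and were among the 18033 genes tested. Messenger RNA of right and left atria was sequenced in 8 libraries, all from Chd4flox/flox mice. The 4 KO libraries came from mice given AAV9:Nppa-Cre and the 4 control libraries from mice given AAV9:Nppa-EGFP, injected on postnatal day 2. The promoter of Nppa, a natriuretic peptide gene of atrial muscle, drove both vectors, while the libraries hold the mixed cells of the atrium. Chd4 encodes a remodeller of the NuRD chromatin complex. Cre stood in one group and EGFP in the other, so their own effects and Chd4 loss cannot be told apart. The sources used here give neither the age at collection nor how many mice each library came from.

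In a voltage-gated calcium channel the alpha-1 subunit forms the pore and senses voltage. The cytosolic beta subunit binds L-type pores, helps bring them to the cell surface and tunes their gating, and the extracellular alpha-2-delta subunit helps traffic the complex. In heart muscle the L-type current triggers calcium release from internal stores and so contraction. T-type channels open at more negative voltages, are known from pacemaking and conducting cells, and do not require a beta subunit.

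Total counts per library were 34002292 to 38228982 in KO and 39804625 to 40588007 in control. Levels are counts per 1e6 (CPM) after TMM scaling of library sizes, with errors as the SD over 4 libraries. The targeted gene Chd4 ranged from 169 to 200 CPM in the KO group and from 278 to 308 CPM among controls (log2 fold change -0.66, SE 0.06, edgeR adjusted p = 1.86e-05). The Y-linked gene Ddx3y was at 0.706 to 0.858 CPM in KO 2 and in controls 1 and 2, and at 105 to 124 CPM in the other libraries. Xist, an RNA of female cells, was at 395 to 408 CPM in KO 2 and controls 1 and 2. KO 3 had Xist at 30.4 CPM (1115 counts) beside high Ddx3y, and the remaining libraries at 0.265 to 3.49 CPM. The cause of the value in KO 3 was not tested. Of 10 cardiomyocyte markers 9 were called lower and 1 higher, with summed levels of 55800 to 67700 CPM in KO and 85900 to 93200 CPM in control. Of 8 fibroblast markers 5 were called higher and 3 not called, with sums of 7260 to 9530 CPM in KO and 6260 to 6990 CPM in control. Of 7 endothelial markers 5 were called higher, 1 lower and 1 not called, with sums of 2370 to 2780 CPM in KO and 1940 to 2170 CPM in control. Macrophage markers (3 of 6 called higher, sums 367 to 522 against 304 to 397 CPM) and epicardial markers (3 of 5 called higher, 551 to 686 against 419 to 547 CPM) had their remaining members not called. For comparison, 14.8% of all tested genes were called higher and 13.1% lower. The part of these marker shifts in the values of the channel genes was not tested. In bulk samples, fewer cells of a type and less RNA per cell cannot be told apart.

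The 3 listed beta subunit genes were higher in the KO atria, Cacnb2 with overlapping groups, while an L-type and a T-type pore gene fell. By edgeR's quasi-likelihood test with Benjamini-Hochberg adjustment over all tested genes, called at an adjusted p under 0.05, 3 of the 10 genes were higher in KO (Cacnb3, Cacnb1 and Cacnb2), 2 were lower (Cacna1d and Cacna1g) and 5 were not called. Over all tested genes 27.9% were called, 14.8% as higher and 13.1% as lower. Among the 11055 tested genes at or above the mean level of the lowest subunit gene, 33.9% were called. The median log2 fold change (KO minus control) was -0.05 over the 10 genes and 0.01 over all tested genes. The libraries of the groups did not overlap for 4 of the 10 genes (Cacnb3, Cacnb1, Cacna1d and Cacna1g), for 29.2% of all tested genes, and for 34.9% of those 11055.

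**Figure D1:**
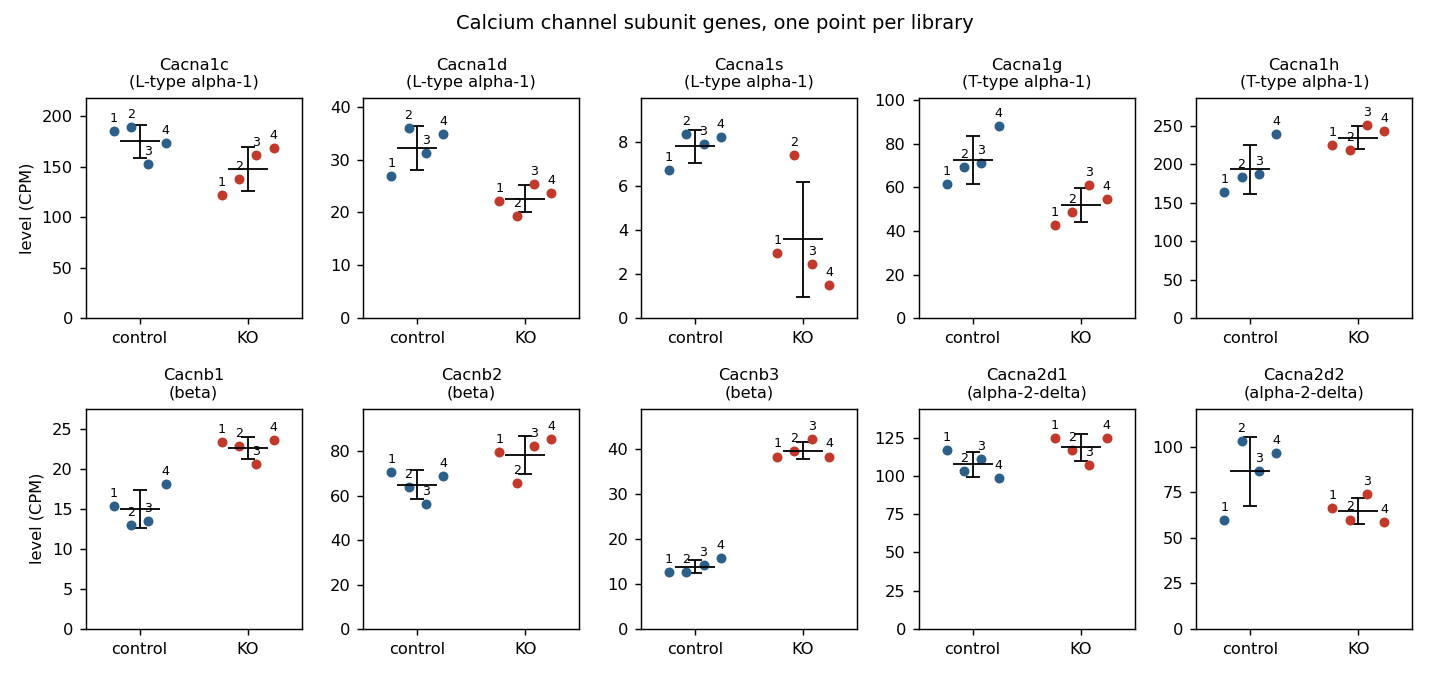
Level of each subunit gene in CPM (vertical axis, from 0) in 4 control libraries (blue) and 4 KO libraries (red), with the library number beside each point and the mean and SD in black. The KO libraries of Cacnb3 sit between 38.3 and 42.2 CPM, all above the controls at 12.6 to 15.8 CPM, while KO 2 of Cacna1s stands at 7.39 CPM, within the range of the controls.

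Cacnb3, a beta subunit gene known mainly from neurons and smooth muscle, had the largest fold change of the 10 genes. It was at 38.3, 39.5, 42.2 and 38.3 CPM in KO 1 to 4 and at 12.6, 12.7, 14.3 and 15.8 CPM in controls 1 to 4. Every KO library was above every control library, and the spread within each group was small beside the gap. Mean levels were 39.5 ± 1.84 and 13.8 ± 1.54 CPM (SD, n = 4 each), a 2.86-fold rise (log2 fold change 1.51, SE 0.08, edgeR adjusted p = 3.01e-07). The gene (ENSMUSG00000003352) spans 98630840 to 98644529 on chromosome 15 of GRCm38.

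The stretches before the annotated starts of Cacnb3 are shown because this gene changed most, and because its 2 starts differ in base composition. RefSeq on GRCm38.p6 gives a start window for 8 of the 10 genes (not for Cacna1g and Cacna1h). The 250 bases before each start of Cacnb3 follow, with CG dinucleotides in capitals.
Cacnb3, upstream annotated start, chr15:98632078-98632327, plus strand: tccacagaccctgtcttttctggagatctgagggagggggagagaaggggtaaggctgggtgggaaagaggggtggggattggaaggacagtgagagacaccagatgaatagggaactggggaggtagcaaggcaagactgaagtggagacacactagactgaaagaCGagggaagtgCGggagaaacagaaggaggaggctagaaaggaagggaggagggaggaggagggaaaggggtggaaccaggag
Cacnb3, downstream annotated start, chr15:98634517-98634766, plus strand: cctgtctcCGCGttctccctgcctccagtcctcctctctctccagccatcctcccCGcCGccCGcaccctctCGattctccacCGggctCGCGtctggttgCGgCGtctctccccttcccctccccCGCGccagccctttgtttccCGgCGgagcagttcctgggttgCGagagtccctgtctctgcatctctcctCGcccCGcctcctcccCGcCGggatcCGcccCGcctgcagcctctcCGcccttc
The upstream stretch held 2 CG dinucleotides at 56.0% G and C, and the downstream one 23 at 70.4%. The counts are per gene and do not say which start was used. A T-box half-site, the letters AGGTGT or on the other strand ACACCT, was searched because the series title names TBX5, a T-box factor, with CHD4. Over windows of 300 bases, from 250 before to 50 after a start, it was present in 13.7% of the 32841 windows of all genes. Neither Cacnb3 window held it. Among the 14 windows of the 8 subunit genes 1 held it, a Cacna1c start on chromosome 6 with the letters beginning 23 bases after the start site.

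Cacnb1, the beta subunit gene of skeletal muscle (chromosome 11, 98001508 to 98023034), also rose. It was at 23.4, 22.9, 20.6 and 23.7 CPM in KO 1 to 4 and at 15.4, 13, 13.5 and 18.2 CPM in controls 1 to 4. The lowest KO library lay above the highest control. Mean levels were 22.7 ± 1.41 and 15 ± 2.33 CPM (SD, n = 4 each), a 1.51-fold rise (log2 fold change 0.59, SE 0.11, edgeR adjusted p = 0.00138).

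Cacnb2, the main beta subunit gene of heart muscle (chromosome 2, 14603088 to 14987908), rose less, and its groups overlapped. It was at 79.9, 65.8, 82.3 and 85.5 CPM in KO 1 to 4 and at 70.6, 64.0, 56.4 and 69.0 CPM in controls 1 to 4. KO 2 lay among the controls, and the other 3 KO libraries above them. The means were 78.4 ± 8.68 and 65.0 ± 6.39 CPM (SD, n = 4 each), a 1.21-fold rise (log2 fold change 0.27, SE 0.09, edgeR adjusted p = 0.0457). This call was lost in 11 of 19 alternative settings, among them with each of KO 1, KO 3, KO 4, control 2, control 3 and control 4 left out (adjusted p = 0.0628 to 0.127).

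Beside the rise of the beta subunit genes, 6 tested markers of neurons and glia gave 0 calls by edgeR, with 2 at an unadjusted p under 0.05 and 1 called by DESeq2 and by limma-voom each. Their list of 9 summed to 25.1 to 27.0 CPM in KO and 20.8 to 33.8 CPM in control. Chat, of cholinergic neurons, had 1 count in control 1 and 0 in the other 7 libraries. Th, of catecholamine neurons and too low to be tested, had 11, 8, 7 and 9 counts in KO 1 to 4 and 5, 5, 5 and 1 in controls 1 to 4, without overlap. Of 6 smooth muscle markers 2 were called higher (Tagln, 4.06-fold, and Cnn1, 3.62-fold), 2 lower (Acta2 and Rgs5, the largest part of the sum) and 2 not called, and their sum was 247 to 367 CPM in KO and 367 to 623 CPM in control. By edgeR 27.9% of all tested genes were called. The part of neurons and glia or of smooth muscle in the levels of the beta subunit genes was not tested.

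Cacna1c, which encodes the main L-type pore of heart muscle (chromosome 6, 118587240 to 119196418), was not called. It was at 122, 138, 162 and 169 CPM in KO 1 to 4 and at 185, 189, 153 and 174 CPM in controls 1 to 4. KO 3 and KO 4 lay within the range of the controls, and KO 1 and KO 2 below it. The means were 148 ± 21.7 and 175 ± 16.4 CPM (SD, n = 4 each) (log2 fold change -0.24, SE 0.10, edgeR adjusted p = 0.11). The 95% interval of the KO to control ratio was 0.722 to 0.991.

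Cacna1d, which encodes an L-type pore of atrial and pacemaker cells that opens at more negative voltages (chromosome 14, 30039939 to 30491455), fell. It was at 22.1, 19.4, 25.3 and 23.7 CPM in KO 1 to 4 and at 26.8, 36.0, 31.2 and 34.8 CPM in controls 1 to 4. All KO libraries lay below all controls, the closest being KO 3 and control 1. The means were 22.6 ± 2.50 and 32.2 ± 4.10 CPM (SD, n = 4 each), a 1.42-fold decrease (log2 fold change -0.51, SE 0.10, edgeR adjusted p = 0.00354). Of its merged exons 4.67% overlap Chdh on the other strand, and reads there cannot be told apart if the counting ignored strand. Chdh had 13 to 62 counts per library, against 750 to 1426 for Cacna1d.

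Cacna1s, the L-type pore and voltage sensor of skeletal muscle (chromosome 1, 136052750 to 136119822), was the lowest of the 10 genes and the most uneven in KO. It was at 2.95, 7.39, 2.48 and 1.52 CPM in KO 1 to 4 and at 6.71, 8.37, 7.89 and 8.22 CPM in controls 1 to 4. KO 2 lay within the controls and the other 3 KO libraries below them. The means were 3.58 ± 2.61 and 7.80 ± 0.753 CPM (SD, n = 4 each) (log2 fold change -1.11, SE 0.42, edgeR adjusted p = 0.087). Without KO 2 the difference was called, with a log2 fold change of -1.75 (edgeR adjusted p = 0.000216). With all libraries, limma-voom with quality weights, which can weigh libraries unequally, called it (-1.27, adjusted p = 0.0146). DESeq2 did not call Cacna1s (adjusted p = 0.0595). Of its merged exons 20% overlap Gm37759 on the other strand, which had at most 3 counts in a library.

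Part of the list of skeletal muscle markers moved with Cacna1s across the KO libraries. Of 11 tested markers in a list of 14, 6 had their highest KO level in KO 2, and the same 6 ranked the 4 KO libraries as Cacna1s did. For example Myh4, a fast skeletal myosin heavy chain, was at 122, 327, 82.3 and 73.6 CPM in KO 1 to 4 and at 301 to 378 CPM in control. The list as a whole did not follow this pattern. Tnni2, Tnnt1, Tnnt3, Mybpc2 and Myh8 had their highest KO level in KO 1, for example Tnnt1 at 171 CPM in KO 1 and 90.2 CPM in KO 2. Of the 11 tested, 2 were called higher (Tnni2 and Tnnt1), 1 lower (Myh2) and 8 not called, beside 27.9% called over all tested genes. The summed level of the list was 763 to 1290 CPM in KO and 762 to 914 CPM in control. The regulators Myod1 and Myog were at most at 0.324 CPM in a library, too low to be tested. Myod1 had 11, 9, 8 and 4 counts in KO 1 to 4 and 3, 3, 3 and 1 in controls 1 to 4, without overlap. The part of skeletal muscle RNA in the values of Cacna1s was not tested.

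**Figure D2:**
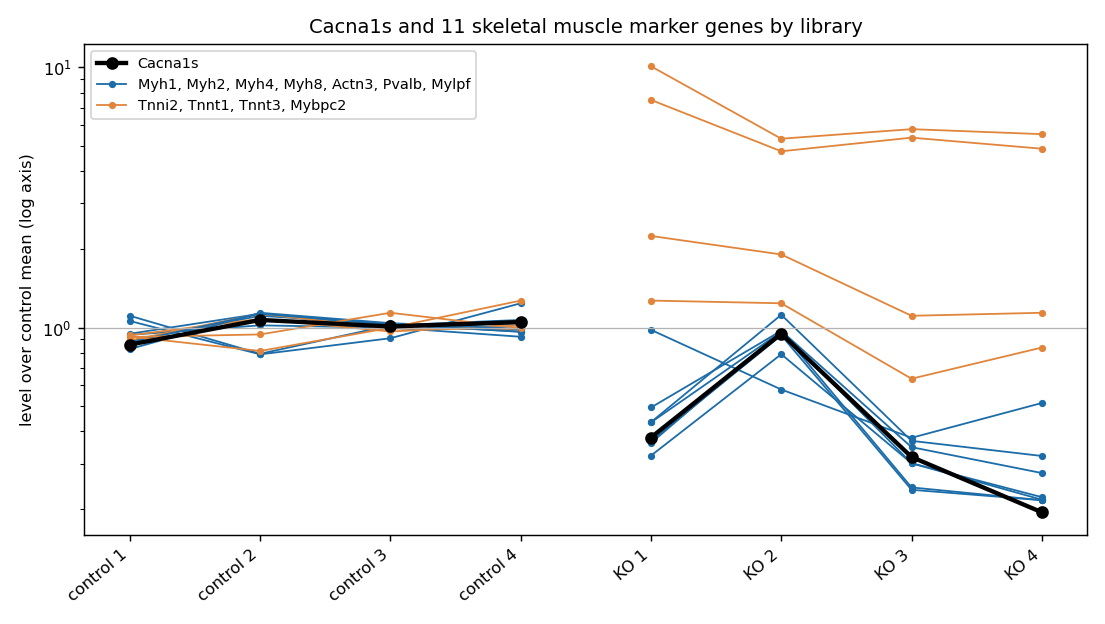
Level of Cacna1s (black) and 11 skeletal muscle markers in each library over the mean of the 4 controls (log axis). Lines join the values of a gene within a group and imply no order of libraries, and the split of the markers into 2 colours was made after their values were seen. Cacna1s stands at 0.948 in KO 2 and at 0.195 to 0.378 in the other KO libraries, beside Myh4 at 0.965 and at 0.217 to 0.36.

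Among the T-type pore genes Cacna1g (chromosome 11, 94408391 to 94474198) fell, and its paralog Cacna1h (chromosome 17, 25374285 to 25433783) was not called. Cacna1g was at 42.9, 48.8, 61.2 and 54.9 CPM in KO 1 to 4 and at 61.5, 69.6, 71.4 and 88.0 CPM in controls 1 to 4. The groups did not overlap, but KO 3 came close to control 1. The means were 51.9 ± 7.89 and 72.6 ± 11.2 CPM (SD, n = 4 each), a 1.40-fold decrease (log2 fold change -0.48, SE 0.13, edgeR adjusted p = 0.0181). The call was lost without KO 2 (adjusted p = 0.0506), without both libraries numbered 2 (0.0811), with no low-count filter (0.0574) and against controls 1 and 2 alone (0.086).

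Cacna1h was at 225, 219, 251 and 243 CPM in KO 1 to 4 and at 164, 184, 187 and 239 CPM in controls 1 to 4. Control 4 lay within the KO range and the other 3 controls below it. The means were 234 ± 15 and 194 ± 32.0 CPM (SD, n = 4 each) (log2 fold change 0.28, SE 0.10, edgeR adjusted p = 0.0662). Without control 4 it was called higher, with a log2 fold change of 0.39 (edgeR adjusted p = 0.00441), and against controls 1 and 2 alone with 0.41 (0.00913). Against controls 3 and 4 alone the log2 fold change was 0.11 (edgeR adjusted p = 0.481). DESeq2 called Cacna1h higher over all 8 libraries (adjusted p = 0.0485).

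The T-type genes were also compared within libraries. The log2 ratio of Cacna1g to Cacna1h within a library was -2.39, -2.16, -2.03 and -2.14 in KO 1 to 4 and -1.41, -1.40, -1.39 and -1.44 in controls 1 to 4. The ratio was nearly the same in all controls, including control 4 in which both genes were high, and lower in every KO library. Its mean was -2.18 ± 0.15 in KO and -1.41 ± 0.02 in control (SD, n = 4 each), so that Cacna1g was 1.7-fold lower relative to Cacna1h. The exact two-sided permutation test gave p = 0.0286, the smallest that 4 against 4 libraries allow. After Benjamini-Hochberg adjustment over the 6 ratios computed it was 0.0857, above the threshold. A single ratio at this smallest p could not pass that adjustment, so the adjusted value cannot decide. Markers of the sinus node, where T-type channels are known to act, were mixed beside the lower ratio in KO. Of 7 tested 1 was called higher (Tbx18), 1 lower (Tbx3) and 5 not called, with sums of 138 to 177 CPM in KO and 148 to 187 CPM in control. The share called over all tested genes was 27.9%, so this count lies near the background.

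**Figure D3:**
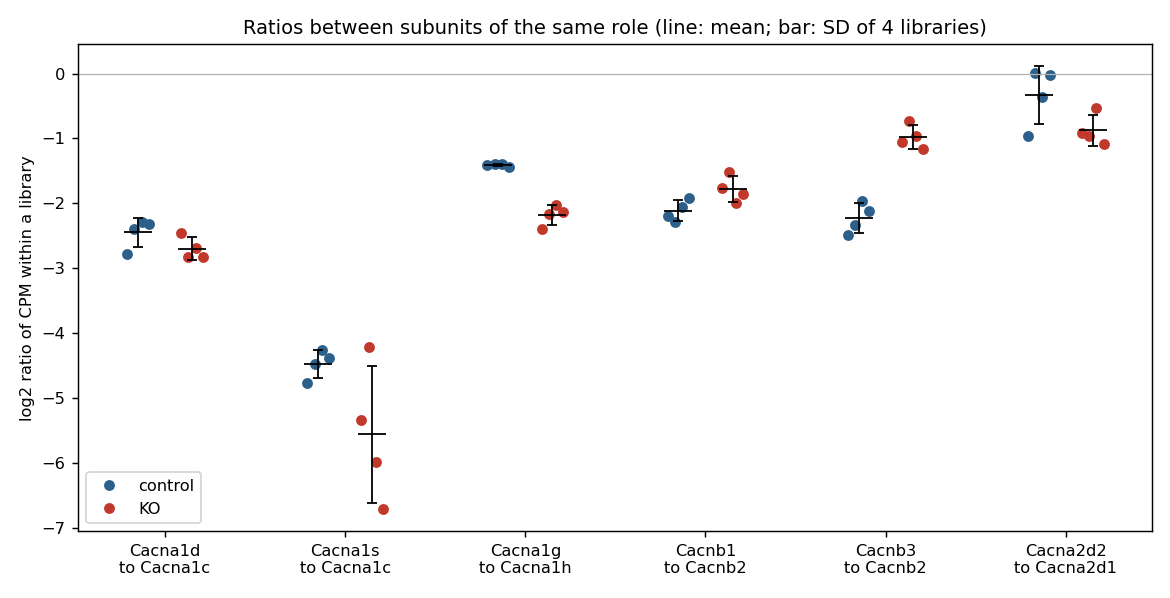
Log2 ratio of CPM between 2 subunit genes of the same role within each library (vertical axis) for 6 pairs, in controls (blue) and KO (red), with mean and SD in black. The groups separate for Cacna1g to Cacna1h and for Cacnb3 to Cacnb2 and overlap for the other 4 ratios.

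Of the other 5 ratios, that of Cacnb3 to Cacnb2 also separated the groups. It was -1.06, -0.73, -0.96 and -1.16 in KO 1 to 4 and -2.48, -2.33, -1.97 and -2.12 in controls 1 to 4. All KO values lay above all control values, with Cacnb3 2.37-fold higher relative to Cacnb2 (exact permutation p = 0.0286, 0.0857 adjusted over the 6). Cacnb1 to Cacnb2 differed by 0.33 on the log2 scale (exact permutation p = 0.0571, adjusted 0.114), with overlap between the groups. Cacna1d to Cacna1c differed by -0.26 and Cacna2d2 to Cacna2d1 by -0.54 (exact permutation p = 0.114 each, adjusted 0.137 each). Cacna1s to Cacna1c differed by -1.08 (exact permutation p = 0.143, adjusted 0.143), and by -1.53 without KO 2.

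Neither alpha-2-delta gene, Cacna2d1 (chromosome 5, 15934691 to 16374511) or Cacna2d2 (chromosome 9, 107399612 to 107529343), was called. Cacna2d1, the main one of heart muscle, was at 125, 117, 107 and 125 CPM in KO 1 to 4 and at 117, 103, 111 and 98.7 CPM in controls 1 to 4. The groups overlapped, with means of 118 ± 8.61 and 107 ± 8.06 CPM (SD, n = 4 each) (log2 fold change 0.14, SE 0.07, edgeR adjusted p = 0.162). The 95% interval of its KO to control ratio was 0.991 to 1.23. Cacna2d2, known from the brain, was at 66.4, 60.1, 73.9 and 58.5 CPM in KO 1 to 4 and at 59.8, 103, 86.7 and 96.8 CPM in controls 1 to 4. Control 1 lay among the KO libraries and the other 3 controls above all of them. The means were 64.7 ± 6.98 and 86.6 ± 19.2 CPM (SD, n = 4 each) (log2 fold change -0.42, SE 0.16, edgeR adjusted p = 0.0782). Without control 1 it was called lower (log2 fold change -0.56, edgeR adjusted p = 0.00144), as it was against controls 3 and 4 alone (-0.53, adjusted p = 0.00347) and by DESeq2 over all libraries (adjusted p = 0.0165). In CPM per kb of merged exons, Cacna2d2 had a higher control mean than Cacna2d1 (10.9 against 8.65), with overlapping libraries.

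Levels of different genes were set side by side as CPM per kb of merged exons. In control atria Cacna1h was highest at 19.8 ± 3.27 CPM per kb (SD, n = 4), above every other subunit gene in all libraries. Cacna2d2 (10.9 ± 2.41), Cacna2d1 (8.65 ± 0.649), Cacna1c (8.26 ± 0.774) and Cacna1g (7.16 ± 1.10) followed, and each overlapped its neighbour in this order. Cacnb2 (4.91 ± 0.483) came next, below all values of Cacna1g, and then Cacnb3 (3.45 ± 0.383) and Cacnb1 (3.32 ± 0.515), which overlapped each other. Cacna1d (2.55 ± 0.325) and Cacna1s (1.19 ± 0.115) were lowest and separate. In KO, Cacna1h was again highest at 24 ± 1.53 CPM per kb, and Cacnb3, the seventh in control, was the second by mean level at 9.86 ± 0.46. In KO it overlapped Cacna2d1 at 9.54 ± 0.694. With the longest transcript as the length Cacnb3 was the fourth in KO at 14.5 ± 0.674 CPM per kb, below Cacna2d1 (15.9 ± 1.16) and Cacnb2 (15.6 ± 1.73), and again the seventh in control. The order of Cacnb2 and Cacna1g in control also rested on the length. By the longest transcript Cacnb2 (12.9 ± 1.27, range 11.2 to 14) lay above all control values of Cacna1g (8.66 ± 1.33, range 7.33 to 10.5).

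Summed over each class, the beta subunit transcripts were higher in KO while the pore transcripts were at a similar level. These sums describe the chosen genes and carry no test. The beta sum was 20.8 ± 0.646 CPM per kb in KO and 11.7 ± 1.11 in control, with ranges of 19.9 to 21.3 and 10.8 to 13.2. The alpha-1 sum was 38.5 ± 3.11 and 39.0 ± 4.55, and the alpha-2-delta sum 17.7 ± 0.616 and 19.5 ± 1.86. Per pore transcript of all listed alpha-1 genes, the beta sum was thus 0.543 ± 0.0341 in KO and 0.301 ± 0.0275 in control. With the longest transcript as the length it was 0.754 ± 0.0494 and 0.45 ± 0.0422. Most of these pore transcripts were T-type, which do not require a beta subunit. Within the beta class the share of Cacnb3 was 44.9% to 49.5% in KO and 26.4% to 33.0% in control, and that of Cacnb2 25.0% to 30.4% and 39.5% to 44.9%.

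Within the pores, the L-type sum was 9.33 ± 0.991 CPM per kb in KO and 12 ± 0.897 in control, and the T-type sum 29.1 ± 2.25 and 27.0 ± 4.37. T-type transcripts stood at 2.96 to 3.42 times the L-type sum in KO atria and at 1.92 to 2.72 times in controls. Taking the longest transcript as the length, they stood at 2.32 to 2.69 times in KO and 1.52 to 2.18 times in control. Cacna1h made up 61.5% to 65.4% of the pore transcripts in KO and 48.3% to 54.0% in control. With the longest transcript as the length, the beta sum was 36.7 ± 1.71 and 22.4 ± 2.00 CPM per kb, Cacnb2 took the largest beta share in both groups (42.3% and 57.7%), and Cacnb3 39.5% and 22.6%. Which beta subunit is most abundant in KO therefore rests on the length taken, while the higher share of Cacnb3 in KO does not.

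**Figure D4:**
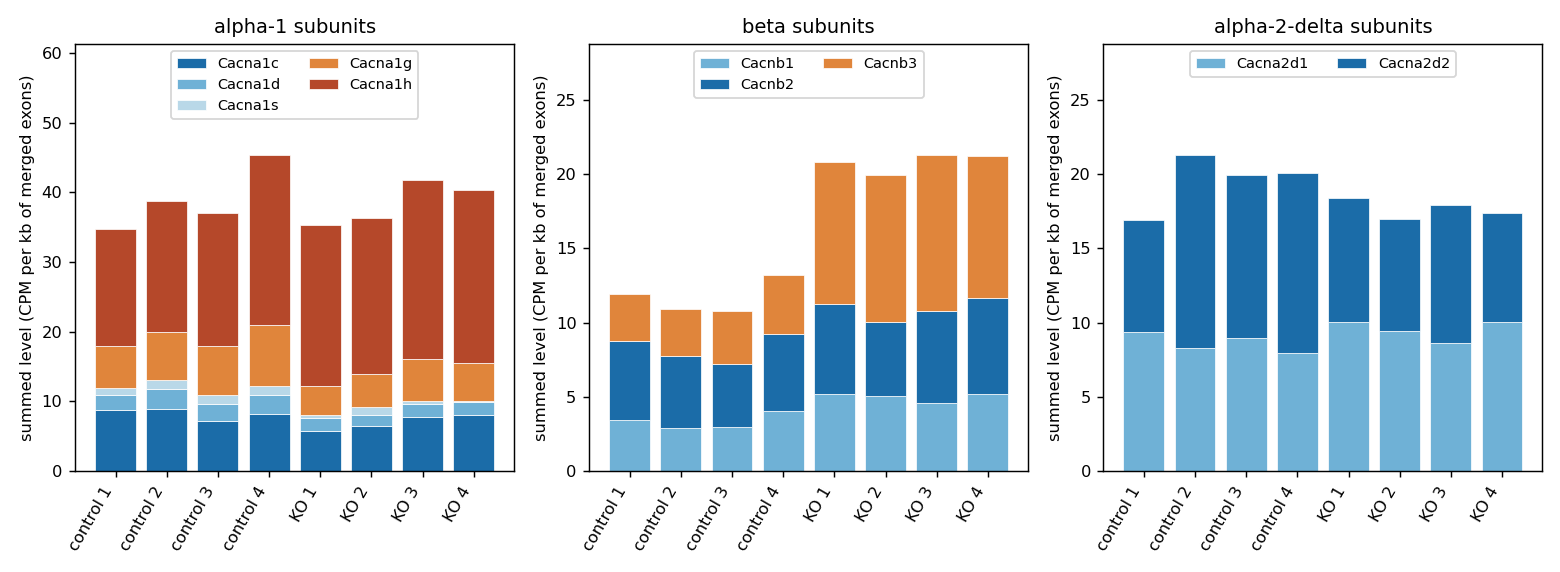
Summed level in CPM per kb of merged exons (vertical axis, from 0) of the alpha-1, beta and alpha-2-delta subunit genes in each library, stacked by gene. The beta bars reach 19.9 to 21.3 in KO and 10.8 to 13.2 in control, while the alpha-1 bars of the groups overlap.

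Of 16 further subunit genes of the channel family, 10 were tested, 2 were called higher, 2 lower and 6 not called, with a median log2 fold change of 0.03. Over all tested genes 14.8% were called higher and 13.1% lower, so these counts lie near the background. Cacna1a, the pore gene of P/Q-type channels of nerve terminals, was at 18.0, 21.7, 22 and 24.1 CPM in KO 1 to 4 and at 9.31, 7.31, 7.33 and 8.48 CPM in controls 1 to 4. The groups were far apart, a 2.65-fold rise (log2 fold change 1.40, edgeR adjusted p = 4.39e-06). The paralog alpha-2-delta gene Cacna2d3 fell 1.87-fold, from 9.92 ± 0.881 to 5.30 ± 0.374 CPM (SD, n = 4 each, edgeR adjusted p = 9.15e-05), and its groups did not overlap. Cacna2d4, an alpha-2-delta gene of the retina, rose 3.03-fold from a low level of 6 to 10 counts per control library to 17 to 38 counts per KO library (edgeR adjusted p = 0.00416). Cacng6, a gamma subunit gene, fell with 34, 42, 41 and 32 counts in controls 1 to 4 and 14, 30, 5 and 9 in KO 1 to 4 (log2 fold change -1.29, edgeR adjusted p = 0.0351). That call was lost in turn without any of the libraries but KO 2 (adjusted p = 0.056 to 0.0985), and without KO 2 the log2 fold change was -1.85. Its counts were highest in KO 2 within KO, as for Cacna1s.

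**Figure D5:**
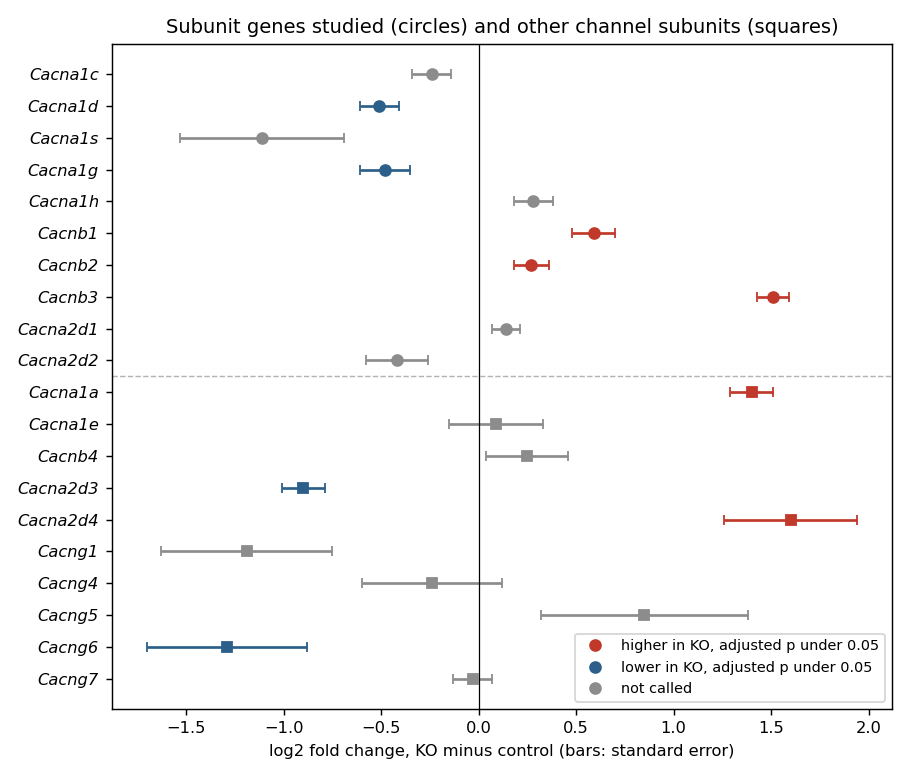
Log2 fold change, KO minus control, with its standard error (horizontal axis) of the 10 subunit genes (circles) and 10 tested further channel subunit genes (squares), red where called higher, blue where called lower and grey where not called. Cacnb3 at 1.51 and Cacna1a at 1.40 stand to the right with small errors.

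Of 22 listed regulators of the channels 21 were tested, 2 were called higher, 2 lower and 17 not called, with a median log2 fold change of -0.07, beside 27.9% called over all tested genes. Among the RGK proteins, small GTPase-like proteins that bind beta subunits and inhibit L-type current, Rrad, at 142 ± 25.0 CPM in control and 135 ± 11.1 CPM in KO (SD, n = 4 each), was not called (log2 fold change -0.07, edgeR adjusted p = 0.699). Gem and Rem1 were not called either. Rem2, an RGK gene known from neurons, rose from 10, 1, 3 and 2 counts in controls 1 to 4 to 76, 99, 60 and 61 counts in KO 1 to 4. Its log2 fold change was 4.24 (SE 0.46, edgeR adjusted p = 4.34e-05), and 5.21 without control 1. In CPM it was at 1.63 to 2.46 in KO and at 0.0252 to 0.26 in control, where 3 of the 4 libraries were at or below the 3 counts taken as the detection floor.

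Stac3, an adaptor of the skeletal muscle channel, fell 2.10-fold from 3.84 ± 0.828 to 1.82 ± 0.444 CPM (SD, n = 4 each, edgeR adjusted p = 0.00365), with KO 2 the highest of the KO libraries at 2.38 CPM. Ppp3ca, which encodes a calcineurin catalytic subunit, rose 1.17-fold from 132 ± 2.33 to 154 ± 3.01 CPM (SD, n = 4 each, edgeR adjusted p = 0.00517), a call lost against controls 1 and 2 alone (0.071) and against controls 3 and 4 alone (0.0541). Cav3, which encodes caveolin of muscle membranes, fell 1.25-fold from 55.0 ± 5.82 to 44.1 ± 5.35 CPM (SD, n = 4 each, edgeR adjusted p = 0.0262). Leaving out KO 2, KO 3, KO 4, control 1 or control 4 in turn lost that call (adjusted p = 0.0718 to 0.0775), as did testing against controls 1 and 2 alone (0.119). The kinase gene Camk2d, the dyad gene Jph2 and Bin1 were not called.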

How the data were processed

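The deposited file holds raw integer counts of reads for every gene in 8 library columns, as the authors left them. STAR, DESeq2 and the build mm10 are named, per the submitters' processing notes, while counter, strand setting and annotation are not given in the sources used here. Vector and number in each column name identified its sample. Gene positions and exon lengths came from GENCODE M21 (GRCm38), which held 54495 of the 54532 identifiers.

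Counts were analysed with edgeR 4.0.16 in R 4.3.3: filterByExpr (minimum count 10, minimum total 15), TMM scaling and a robust quasi-likelihood test of KO against control with no covariate. Ratios used CPM plus 0.1. On simulated data for KO against control (18033 genes) edgeR recovered 53.7%, 73.1% and 95.5% of genes changed 1.5-fold, 2-fold and 4-fold. The simulation changed 67, 67 and 66 genes by these folds, and 10 unchanged genes were among its 158 calls. Its share of changed genes was far below the 27.9% called in the data, so recovery in the data may differ. Alternatives used DESeq2 1.42.0, limma 3.58.1 (voom with quality weights), other scalings and filters, a replicate block, a Y-linked covariate and subsets of libraries. Leaving out both libraries numbered 2 was chosen after seeing the data.

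The 10 genes and the lists of other subunits, regulators and markers were chosen with earlier results of these data known. The rule named all 10 genes, then the called genes of the subunit and regulator lists, up to 8 each; uncalled genes and single markers are named as examples chosen after their values were seen. No pair of same-group libraries looked like a copy (chi-square over its degrees of freedom, 12.3 to 31.1). Whether each library is a different mouse is not stated, so the p-values speak only to the variation among these 8 libraries, which could be technical. KO and control had different library-name prefixes throughout, and prefix and group cannot be told apart. Within the groups, KO 1 had a different prefix from KO 2, KO 3 and KO 4, and controls 1 and 2 from controls 3 and 4. Intervals cover the spread the model estimates.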

Additional observations from a re-analysis of the deposited data

Results flagged for a closer look

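In 50 groups of 4 libraries checked, 2 held a library far from the others, about what chance alone gives at 1 in 20. Ppp3ca was at 159 CPM in KO 2, with the other KO libraries at 152 to 153 CPM. Cav3 was at 52.0 CPM in KO 1, with the other KO libraries at 40.3 to 42.1 CPM.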

How the results depend on the processing

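Over 19 alternative settings for each of the 10 subunit genes, 164 of 190 values kept the direction and the side of the threshold, 15 lost the call, 11 gained one and 0 changed direction. Cacnb3 (log2 fold change 1.37 to 1.63), Cacnb1 (0.49 to 0.69) and Cacna1d (-0.59 to -0.38) were called in all 19. The number of subunit genes called lower was 1 in place of 2 with no low-count filter and with controls 1 and 2 only. Over all genes, 1700 were called higher with controls 3 and 4 only, in place of 2677. The cause was not tested, though both subsets use fewer libraries. Controls 1 and 2 also differ from controls 3 and 4 in library-name prefix and in Ddx3y level, and these cannot be told apart. DESeq2 called 7 of the 10 genes, and of the 11 skeletal muscle markers edgeR called 3, DESeq2 5 and limma-voom 9. With the longest transcript in place of merged exons, 8 of 10 genes kept their rank of control level, while Cacnb2 and Cacna1g changed places.

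With the replicate block 4757 genes were called in place of 5032, and 7 subunit genes in place of 5, Cacna1s (-1.32, adjusted p = 0.0373) and Cacna1h (0.29, adjusted p = 0.0282) being the added calls. Deviations of same-numbered libraries correlated at -0.27, 0.46, 0.03 and 0.14, and 2 of 4 KO libraries correlated best with their own number. So few values cannot decide whether same-numbered samples were paired, and the labels do not say that they were. For the ratios, an exact sign-flip test over the 4 same-numbered differences cannot go below p = 0.125, and all 6 adjusted values were 0.25. The floor of 3 counts lay at 0.0744 to 0.0885 CPM, which limits what can be read for the lowest channel genes but not for the 10 subunit genes.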
